A study of Mus musculus with 16 samples.

Results

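This account follows 10 genes that act in the choice of an odorant receptor gene, in the feedback that stabilises that choice and in the export of the receptor protein. The genes were Lhx2, Ldb1, Emx2, Kdm1a, Lbr, Atf5, Eif2ak3, Rtp1, Rtp2 and Ric8b. They were taken by the gene symbol of the platform annotation, out of 19505 named genes on the array, and each of the 10 had 1 probe set. Messenger RNA of sorted cells from mouse olfactory mucosa was measured on 16 Clariom S arrays. All mice were C57BL/6 animals of both sexes, 7 to 12 weeks old, and carried S100a5-tauGFP, a reporter that puts green fluorescent protein (GFP) under control of S100a5, which olfactory neurons transcribe when they are active. They were kept singly in chambers with clean air for 40 h and received either the fatty aldehyde undecanal or filtered air as vehicle, in pulses of 10 s every 20 min from 26 h on. Each agent had 4 pools of 3 mice, and each pool was sorted into 2 fractions, which gave 4 groups of 4 arrays: vehicle titled GFP-, vehicle titled GFP+, undecanal titled GFP- and undecanal titled GFP+.

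The sample titles and the cell type labels gave opposite GFP signs in all 16 samples, and the fractions are therefore called titled GFP+ and titled GFP-. S100a5 itself was lower in arrays titled GFP+, by -0.91 on the log2 scale in vehicle pools (limma adjusted p = 0.000715) and by -0.97 in undecanal pools (limma adjusted p = 0.000394), which goes against the titles and with the cell type labels. If those labels are right, every difference between fractions given here would change sign, and so would its change with the agent. A difference between agents within a fraction would keep its sign but belong to the other fraction. Omp, which marks mature olfactory neurons, gave fraction differences of -0.0035 and -0.046 (SE 0.11 each). The spread behind each p-value is that between pools of mice, drawn by limma toward a value common to all probe sets. It is therefore not the spread of the single gene alone. Precision is limited by having 4 arrays a group.

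A mature olfactory neuron transcribes mainly 1 odorant receptor gene out of a very large family. The LIM homeodomain protein Lhx2 and its partner Ldb1 bind the enhancers of receptor genes and hold them together in the nucleus, and the homeodomain protein Emx2 acts on receptor promoters. The demethylase Kdm1a (also called Lsd1) is needed to activate a receptor gene, and Lbr, a protein of the inner nuclear membrane that tethers heterochromatin, is a brake on the clustering of receptor genes. Newly made receptor protein engages the kinase Eif2ak3 (also called Perk), which leads to translation of the transcription factor Atf5 and so to a stable choice. Rtp1 and Rtp2 carry receptors to the cell surface, and Ric8b is an exchange factor and chaperone of the olfactory G protein. Arrays measure the mRNA of these genes and not the phosphorylation or translation steps of the feedback.

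The stretches of 250 bases before the annotated start of 4 of these genes are shown for reference. These genes had the same sign of the fraction difference in 8 of 8 pools, Lbr upward and Rtp2, Ric8b and Atf5 downward. Such a shared sign was found for 19.6% of all probe sets, and of the 4 genes only Lbr passed the limma test between fractions. The stretches are RefSeq sequences of build GRCm38.p6, written 5′ to 3′ on the strand of the gene. Capitals mark matches, on either strand, to CCCNNGGG, the core of the site of the Ebf factors of olfactory neurons, or to CCAAT, the box bound by NF-Y.
Lbr, chr1:181842402-181842651, minus strand: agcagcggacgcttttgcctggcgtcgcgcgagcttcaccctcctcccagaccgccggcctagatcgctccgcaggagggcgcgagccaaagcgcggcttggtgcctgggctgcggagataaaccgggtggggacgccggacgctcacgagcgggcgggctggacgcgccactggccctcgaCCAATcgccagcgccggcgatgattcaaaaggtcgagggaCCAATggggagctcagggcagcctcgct
Rtp2, chr16:23930795-23931044, minus strand: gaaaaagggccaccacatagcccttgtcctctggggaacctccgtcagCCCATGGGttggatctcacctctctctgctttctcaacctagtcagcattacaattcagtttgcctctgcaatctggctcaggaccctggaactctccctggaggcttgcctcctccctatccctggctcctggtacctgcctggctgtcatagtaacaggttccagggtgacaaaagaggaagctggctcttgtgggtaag
Ric8b, chr10:84917363-84917612, plus strand: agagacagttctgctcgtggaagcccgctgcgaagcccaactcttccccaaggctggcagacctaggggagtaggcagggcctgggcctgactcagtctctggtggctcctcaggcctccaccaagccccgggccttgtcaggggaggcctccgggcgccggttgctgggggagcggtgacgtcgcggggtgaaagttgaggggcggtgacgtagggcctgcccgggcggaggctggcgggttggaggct
Atf5, chr7:44816659-44816908, minus strand: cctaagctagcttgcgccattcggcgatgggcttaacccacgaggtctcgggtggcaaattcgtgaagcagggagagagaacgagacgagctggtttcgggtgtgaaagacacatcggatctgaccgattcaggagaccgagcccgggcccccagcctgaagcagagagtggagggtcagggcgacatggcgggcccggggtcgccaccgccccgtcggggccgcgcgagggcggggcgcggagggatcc
Lbr held 2 CCAAT matches, 68 and 28 bases before the start, a motif present in 33.8% of 32851 promoters of the same length. Rtp2 held 1 match to CCCNNGGG, 202 bases before the start, a motif present in 11.8% of promoters. Ric8b held neither motif. Atf5 has 2 promoters in RefSeq: the one shown, at the more upstream start, held neither, and the other held CCAAT 192 bases before its start. RefSeq promoters were matched for 9 of the 10 genes (13 promoters, the missing gene being Rtp1). Of these 13, 2 held CCCNNGGG, 6 held CCAAT, 1 held TGATGNAA (the composite site of ATF4 and C/EBP factors, 3.45% of promoters), 0 held the homeodomain core TAATTA (4.84%) and 0 held TGACGTCA (the cyclic AMP response element, 1.55%). The matches are a description of the sequences.

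Between the sort fractions 1 of the 10 genes, Lbr, passed the test (limma, adjusted p under 0.05 over 22206 probe sets), and it was higher in arrays titled GFP+ with either agent. In vehicle pools 13.9% of all probe sets passed in either direction and 8.82% as higher, and in undecanal pools 13.2% and 8.83% (lower: 5.12% and 4.36%), so 1 of 10 is near the share of all probe sets. The median difference of the 10 genes was -0.0978 in vehicle pools and 0.00623 in undecanal pools, beside medians of -0.113 and -0.106 over all probe sets. Groups of 4 arrays did not overlap for 2 of the 10 genes in vehicle pools, where 18.1% of all probe sets did not, and for 3 in undecanal pools, where 17.3% did not. An unadjusted p under 0.05 was found for 1 gene in vehicle pools, beside 25.8% of all probe sets, and for 3 in undecanal pools (Lbr, Atf5 and Rtp2), beside 24.1%. The sign was the same in 8 of 8 pools for 4 of the 10 genes and for 19.6% of all probe sets: 1 of the 10 was higher in each pool, beside 10.3%, and 3 were lower, beside 9.33%.

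**Figure D1:**
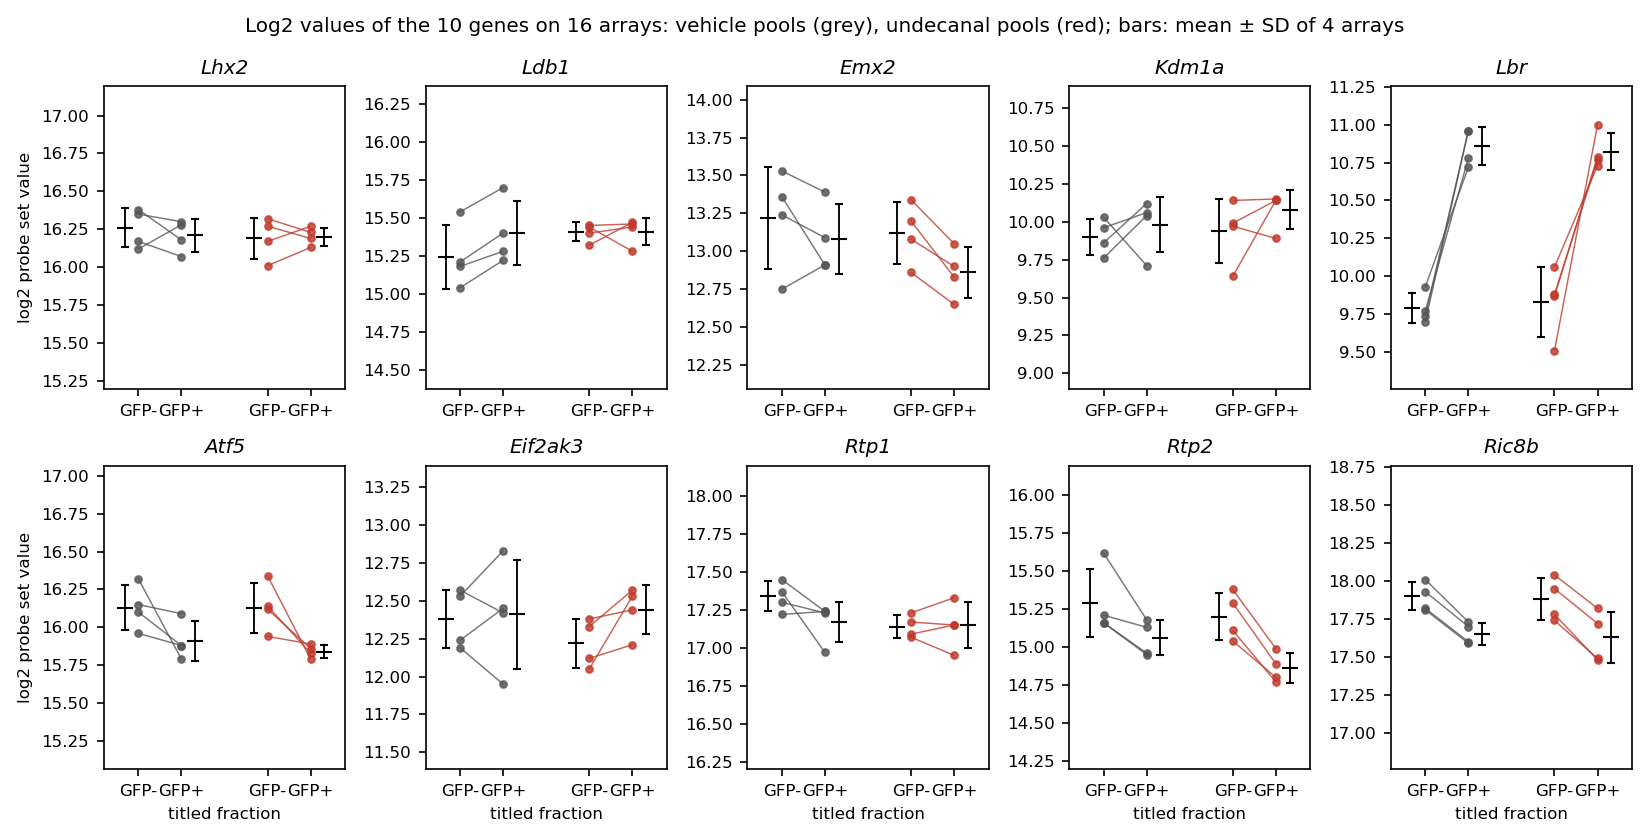
Log2 probe set value of each gene on the 16 arrays, with vehicle pools in grey and undecanal pools in red. Each line joins the fractions titled GFP- and GFP+ of 1 pool, the black bars give mean and SD of 4 arrays, and every panel spans 2 log2 units around its own centre. The lines of Lbr all rise, those of Ric8b, Rtp2 and Atf5 all fall, and those of Lhx2 cross.

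Lbr measured 9.74, 9.77, 9.93 and 9.70 in vehicle arrays titled GFP- (pools 1 to 4) and 10.96, 10.78, 10.72 and 10.96 in those titled GFP+. With undecanal it measured 9.51, 9.88, 10.06 and 9.87 in arrays titled GFP- and 11, 10.77, 10.73 and 10.79 in those titled GFP+. All 8 arrays titled GFP+ thus lay above all 8 titled GFP-, while the agents overlapped within each fraction. The difference was 1.07 on the log2 scale in vehicle pools (SE 0.137, 95% interval 0.78 to 1.36, limma adjusted p = 1.52e-05), a 2.10-fold difference. In undecanal pools it was 0.99 (SE 0.137, 95% interval 0.70 to 1.28, limma adjusted p = 3.61e-05), or 1.99-fold. Within single pools it ran from 0.67 to 1.49. Lbr passed under all 18 alternatives in each agent, with values from 0.71 to 1.33 in vehicle pools and from 0.64 to 1.24 in undecanal pools.

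Genes of several other cell types moved with Lbr. Lbr is also known as a gene of maturing granulocytes, whose nuclear shape depends on it. All 15 neutrophil and monocyte genes measured were higher in arrays titled GFP+ with either agent (limma), and their mean log2 level ran from 4.27 to 4.96 in vehicle arrays titled GFP- and from 11.91 to 12.51 in those titled GFP+, with 7 of the 15 below the background level of 4.8 in the former and 0 in the latter. With undecanal the ranges were 4.50 to 4.85, with 10 of 15 below background, and 11.69 to 12.64. Genes of basal progenitors and the cell cycle were higher in 7 of 9 cases in vehicle pools, with a mean log2 level of 5.31 to 5.71 against 7.27 to 7.74, and in 8 of 9 in undecanal pools. Immature neuron genes were higher in 7 of 12 cases in vehicle pools (10.53 to 10.72 against 12.25 to 12.46) and in 6 of 12 in undecanal pools, where 1 was lower. Sustentacular cell genes were higher in 4 of 7 cases with either agent, and microvillar cell genes in 8 of 8 and 7 of 8. Lymphocyte genes were higher in 3 of 5 and 4 of 5 cases (vehicle and undecanal pools), and erythroid genes in 2 of 2. Horizontal basal cell genes were higher in 1 of 5 and 0 of 5, and vascular and stromal genes in 1 of 5 and 2 of 5. For ensheathing glia it was 0 of 4 with either agent. Over all probe sets 8.82% and 8.83% were called higher. The part of any of these cells in the Lbr difference was not tested, and in sorted bulk RNA the share of a cell type and the RNA per cell cannot be told apart.

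The 3 genes whose values followed Lbr most closely over the 16 arrays, out of 12965 genes above background in at least 1 group, were Cd63 (Pearson r = 0.983), Fcgr3 (0.980) and Chil4 (0.980). Cd63 is a tetraspanin of lysosomes and granules, Fcgr3 an Fc receptor of myeloid cells and Chil4 a chitinase-like protein. They differed between the fractions of vehicle pools by 2.50, 6.31 and 6.71 on the log2 scale. The arrays share the split into fractions, so these r values describe that split and carry no test.

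None of the genes of export and G protein coupling passed. Ric8b and Rtp2 were lower in the array titled GFP+ in 8 of 8 pools and Rtp1 in 5 of 8, beside a median of -0.196 and -0.169 for 15 mature neuron genes in vehicle and undecanal pools. With each array centred on the mean of those genes, the vehicle differences of Ric8b, Rtp2 and Rtp1 were positive (0.022, 0.033 and 0.096). That centring shifts all probe sets of an array together, and the vehicle median of all probe sets rose from -0.113 to 0.152. Ric8b measured 17.81, 18.01, 17.93 and 17.82 in vehicle arrays titled GFP- and 17.59, 17.73, 17.70 and 17.60 in those titled GFP+. With undecanal it measured 18.04, 17.78, 17.74 and 17.95, and 17.82, 17.48, 17.49 and 17.72. The vehicle groups did not overlap, the undecanal groups did, and within each of the 8 pools the array titled GFP+ was lower, by an amount that ran only from -0.30 to -0.22. The limma difference was -0.24 in vehicle pools (SE 0.127, 95% interval -0.51 to 0.03, limma adjusted p = 0.246) and -0.25 in undecanal pools (SE 0.127, -0.52 to 0.02, limma adjusted p = 0.248). With the pool as a replicate block it did not pass either (limma adjusted p = 0.163 and 0.161). That block sets 1 correlation between fractions, 0.167, for all probe sets and not that of Ric8b.

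Rtp2 measured 15.62, 15.16, 15.16 and 15.21 in vehicle arrays titled GFP- and 15.18, 14.96, 14.95 and 15.13 in those titled GFP+. With undecanal it measured 15.38, 15.11, 15.29 and 15.04, and 14.99, 14.77, 14.89 and 14.80. The undecanal groups did not overlap, and the array titled GFP+ was the lower in 8 of 8 pools, by -0.44 to -0.08. The difference was -0.23 in vehicle pools (SE 0.139, limma adjusted p = 0.316) and -0.34 in undecanal pools (SE 0.139, 95% interval -0.63 to -0.05, limma adjusted p = 0.129).

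Rtp1, the other receptor transporter, measured 17.37, 17.30, 17.45 and 17.22 in vehicle arrays titled GFP- and 16.97, 17.23, 17.24 and 17.24 in those titled GFP+. With undecanal it measured 17.23, 17.17, 17.09 and 17.07, and 17.33, 17.15, 17.15 and 16.95. The groups overlapped with either agent, and 5 of 8 pools were lower in the array titled GFP+. The difference was -0.17 in vehicle pools (95% interval -0.43 to 0.10) and 0.0043 in undecanal pools (95% interval -0.26 to 0.27), where its sign turned with array weights and with median centring.

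In the feedback branch, Atf5 measured 16.32, 16.15, 16.10 and 15.96 in vehicle arrays titled GFP- and 15.79, 16.09, 15.88 and 15.88 in those titled GFP+. With undecanal it measured 16.34, 16.14, 15.94 and 16.12, and 15.79, 15.83, 15.89 and 15.86. The undecanal groups did not overlap, and 8 of 8 pools were lower in the array titled GFP+, by -0.55 to -0.05. The difference was -0.22 in vehicle pools (SE 0.129, limma adjusted p = 0.294) and -0.29 in undecanal pools (SE 0.129, limma adjusted p = 0.172). Rtp2 and Atf5 passed in undecanal pools with an intensity trend in the prior variance (limma adjusted p = 0.0433 and 0.0483). Eif2ak3, the kinase upstream of Atf5, ran from 12.19 to 12.57 in vehicle arrays titled GFP- and from 11.95 to 12.83 in those titled GFP+. With undecanal it ran from 12.05 to 12.38 and from 12.21 to 12.57. Its difference was 0.029 in vehicle pools (95% interval -0.34 to 0.39) and 0.22 in undecanal pools (95% interval -0.15 to 0.58), and it was higher in 6 of 8 pools.

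The DNA-binding regulators of choice, Lhx2 and Emx2, and the adaptor Ldb1 did not pass. Lhx2 ran from 16.12 to 16.38 and from 16.07 to 16.30 in vehicle arrays titled GFP- and GFP+, and from 16.01 to 16.32 and from 16.13 to 16.27 in the undecanal ones. Its difference was -0.05 in vehicle pools (95% interval -0.31 to 0.21) and 0.0085 in undecanal pools (-0.25 to 0.27), with 5 of 8 pools lower. Ldb1, the adaptor that Lhx2 binds, differed by 0.16 in vehicle pools (-0.14 to 0.45) and by 0.0081 in undecanal pools (-0.29 to 0.30), and 7 of 8 pools were higher in the array titled GFP+. The range of Ldb1 between vehicle pools, 15.04 to 15.54 in arrays titled GFP- and 15.22 to 15.70 in those titled GFP+, was wider than that between undecanal pools, 15.32 to 15.45 and 15.28 to 15.47, and pool 1 gave the highest vehicle value in either fraction. Emx2 differed by -0.15 in vehicle pools (-0.52 to 0.23) and by -0.26 in undecanal pools (-0.64 to 0.11), with 7 of 8 pools lower. It ran from 12.75 to 13.53 and from 12.91 to 13.39 in vehicle arrays, and from 12.86 to 13.34 and from 12.65 to 13.05 in undecanal arrays.

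Kdm1a ran from 9.76 to 10.03 and from 9.71 to 10.12 in vehicle arrays titled GFP- and GFP+, and from 9.64 to 10.14 and from 9.89 to 10.15 in the undecanal ones. The demethylase differed by 0.081 in vehicle pools (95% interval -0.22 to 0.38) and by 0.14 in undecanal pools (-0.16 to 0.44), and 6 of 8 pools were higher. Its groups overlapped in every comparison. Of the other 9 genes, the interval nearest to the Lbr difference was that of Eif2ak3 in undecanal pools, with an upper bound of 0.58.

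**Figure D2:**
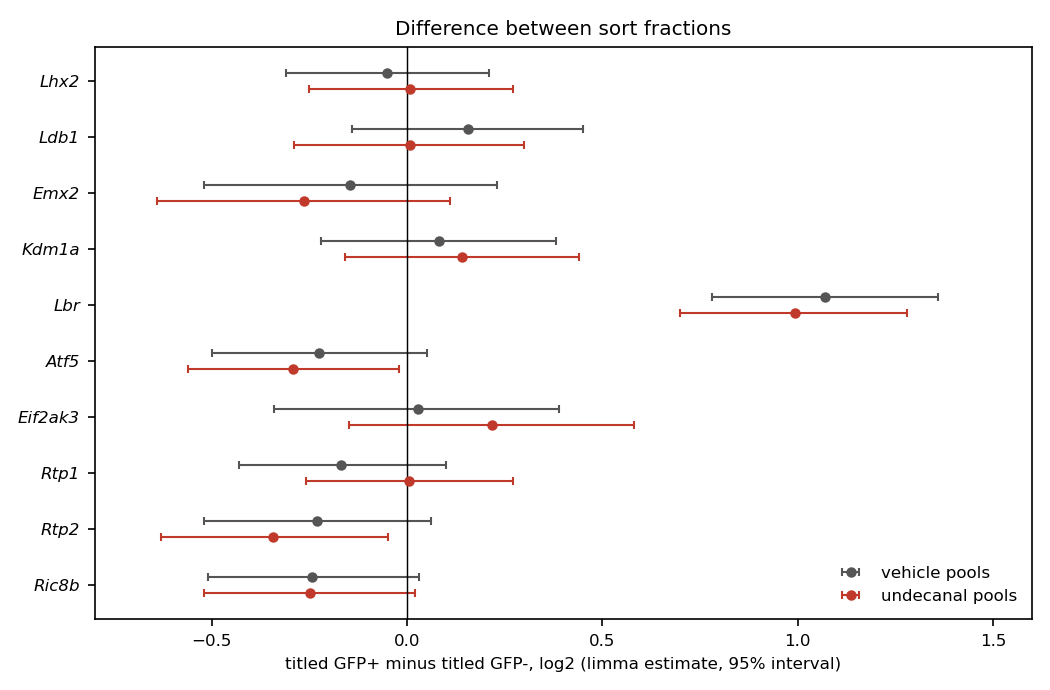
Difference between sort fractions (titled GFP+ minus titled GFP-, log2) for each gene, as limma estimates with 95% intervals, in vehicle pools (grey) and undecanal pools (red). Lbr stands at 1.07 and 0.99, and the other 9 genes lie between -0.34 and 0.22.

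In vehicle pools these directions depended on how the arrays were scaled, except that of Lbr. In undecanal pools Emx2, Atf5, Rtp2 and Ric8b also kept their direction, negative under all 18 alternatives, and the other genes but Lbr did not. With each array centred on its median, the median difference of all probe sets moved from -0.113 to -0.469 in vehicle pools, and 50.6% of all probe sets were called lower, against 5.12% as deposited. Of the 10 genes 6 were then called lower in vehicle pools (Lhx2, Emx2, Atf5, Rtp1, Rtp2 and Ric8b) and 7 in undecanal pools, where Ldb1 joined them. Ric8b, for example, differed by -0.60 in vehicle pools (limma adjusted p = 0.00206). With arrays centred on the mean of 15 mature neuron genes, none among the 10, the vehicle median of all probe sets rose to 0.152. The vehicle differences of Ric8b, Rtp2 and Atf5 then turned to 0.022, 0.033 and 0.040. Those of undecanal pools stayed negative at -0.006, -0.099 and -0.049. Those 15 mature neuron genes had a median of -0.196 in vehicle pools and -0.169 in undecanal pools as deposited, with 4 of 15 lower and 0 higher in each (limma).

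**Figure D3:**
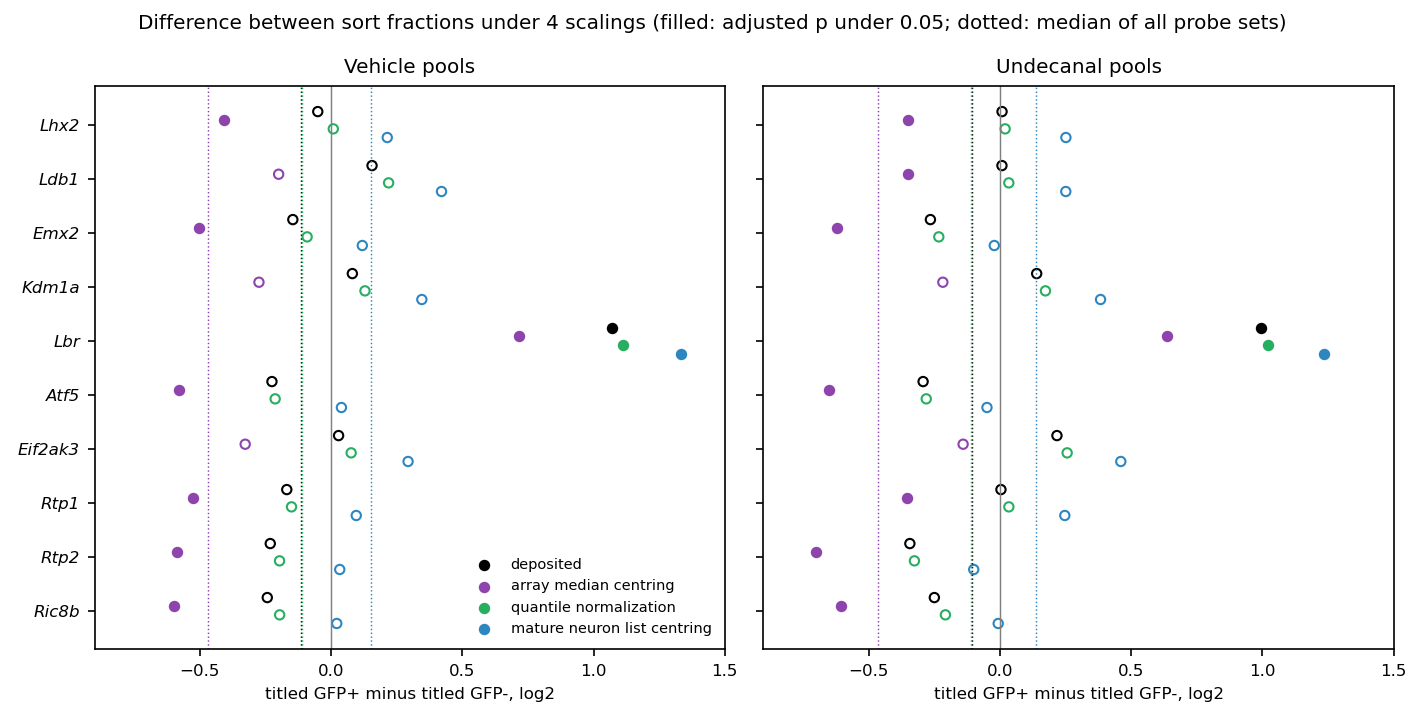
Difference between sort fractions of each gene (log2) under the deposited scaling and 3 others, in vehicle and undecanal pools, with filled points for adjusted p under 0.05 and dotted lines for the median of all probe sets. Lbr is positive and filled under all 4 scalings, while the points of the other genes move with the dotted lines.

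Undecanal gave no passing difference in any of the 10 genes. In arrays titled GFP+ the limma test called 0 of the 10, beside 1 of 22206 probe sets (0.0045%). An unadjusted p under 0.05 was found for 0 of the 10 and for 603 probe sets (2.72%). The largest differences there were in Emx2 (-0.22, 95% interval -0.59 to 0.15), Rtp2 (-0.19, -0.48 to 0.10) and Kdm1a (0.097, -0.20 to 0.40), each with a limma adjusted p of 0.999. Rtp2 averaged 14.86 ± 0.099 (SD, n = 4) with undecanal and 15.06 ± 0.115 (SD, n = 4) with vehicle, and 1 undecanal array lay within the vehicle range. The intervals of all 10 genes lay between -0.59 and 0.40, so larger changes than these were outside the intervals, and smaller ones were not resolved. Atf5 differed by -0.067 and Lbr by -0.032 in these arrays.

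In arrays titled GFP- the limma test called 0 of the 10 genes and 0 of all probe sets (0%). An unadjusted p under 0.05 was found for 0 of the 10 and for 914 probe sets (4.12%). Rtp1 differed by -0.19 (95% interval -0.46 to 0.07, limma adjusted p = 1), with vehicle arrays at 17.34 ± 0.0988 (SD, n = 4) and undecanal arrays at 17.14 ± 0.0734 (SD, n = 4), and the lowest vehicle array, 17.22, lay below the highest undecanal array, 17.23. Eif2ak3 differed by -0.17 (-0.53 to 0.20) and Ldb1 by 0.16 (-0.13 to 0.46). Atf5, the target of the feedback kinase, was at 16.13 with either agent, with an interval from -0.27 to 0.27. The groups overlapped between agents for all 10 genes in either fraction, where 1.87% (titled GFP+) and 2.2% (titled GFP-) of all probe sets did not overlap.

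**Figure D4:**
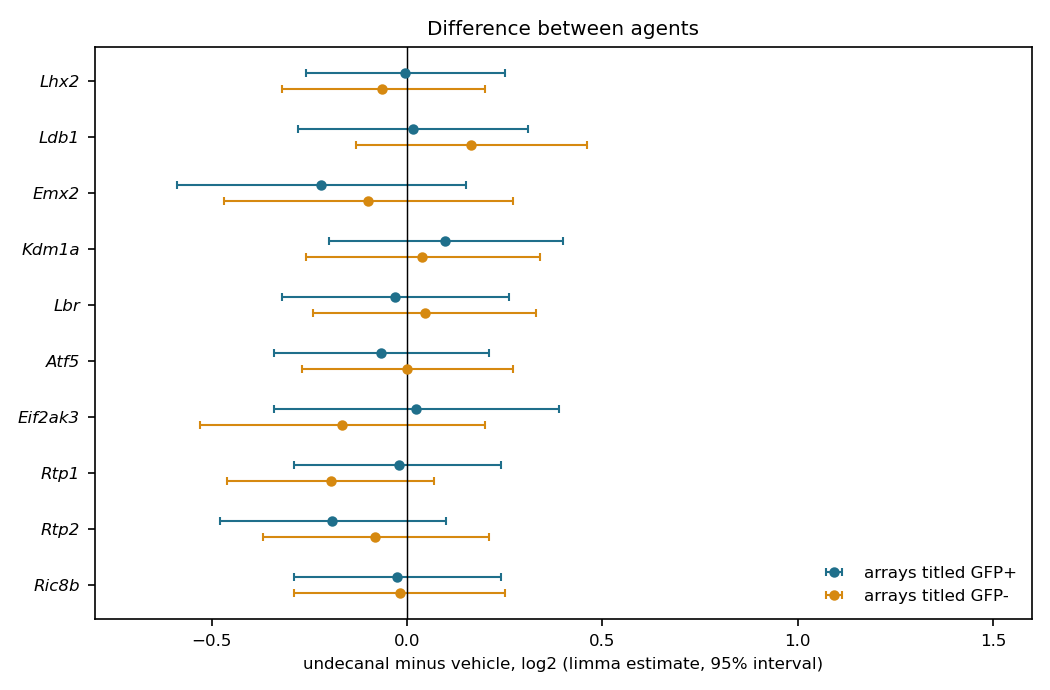
Difference between agents (undecanal minus vehicle, log2) for each gene, as limma estimates with 95% intervals, in arrays titled GFP+ (blue) and titled GFP- (orange), on the same axis range as the plot of differences between fractions. All intervals include 0, and the estimates lie between -0.22 and 0.16.

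The difference between fractions was not shown to depend on the agent. For the interaction the limma test called 0 of the 10 genes and 0 of all probe sets (0%), and the unadjusted p was under 0.05 for 0 of the 10 and for 584 probe sets (2.63%). It was highest in Eif2ak3 (0.19, SE 0.245, 95% interval -0.33 to 0.70) and lowest in Ldb1 (-0.15, SE 0.198, -0.57 to 0.27). Lbr gave -0.077 (SE 0.194, -0.49 to 0.33).

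Other genes of the same pathways were read from 5 lists, of which 116 of 123 genes were measured. Of 23 other factors of receptor choice and nuclear architecture, 2 were higher in vehicle arrays titled GFP+ and 0 lower (limma): Sun2, a protein of the nuclear envelope like Lbr (1.41, from 4.50, below background, to 5.91), and the homeodomain gene Dlx5 (0.82). In undecanal pools 1 passed, Sun2 (1.39). Over all probe sets 8.82% were called higher in vehicle pools and 8.83% in undecanal pools, so 2 of 23 is near that share. The shares called lower were 5.12% and 4.36%. The Dlx5 call was lost in 6 of 18 alternatives, among them quantile normalization (limma adjusted p = 0.101) and the omission of vehicle pool 1, 2 or 4 (up to 0.174). The median of the list was -0.0523 in vehicle pools, beside -0.113 over all probe sets.

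Of 26 genes of heterochromatin and of the complexes around Kdm1a, 6 were higher in vehicle pools and 4 in undecanal pools, and 0 were lower, where 8.82% and 8.83% of all probe sets were higher. The medians of the list were 0.129 and 0.0474, beside -0.113 and -0.106 over all probe sets. Kdm7a, a histone demethylase, differed by 1.23 and 0.92, Rest, the repressor of neuronal genes, by 1.16 and 0.93, and Rcor2, a corepressor that binds Kdm1a, by 0.92 and 1.13. Rcor2 lay at 4.8 and 4.34 in arrays titled GFP-, at or below background. The Rest call in undecanal pools was lost with quantile normalization and without undecanal pool 1 or 3, with limma adjusted p up to 0.130.

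Of 31 genes of the unfolded protein response and the eIF2alpha pathway, in which Eif2ak3 and Atf5 act, 3 were higher in vehicle pools and 2 in undecanal pools, and 0 were lower, which is near the 8.82% and 8.83% of all probe sets called higher. The medians of the list were -0.0378 and -0.00156, beside -0.113 and -0.106. Atf3, a stress-induced transcription factor, differed by 1.44 and 1.80. Edem1, which directs misfolded proteins to degradation, differed by 0.65 and 0.55, and Eif2ak4, another kinase of eIF2alpha, by 0.63 in vehicle pools. The Edem1 call of vehicle pools was lost in 3 of 18 alternatives, median centring (limma adjusted p = 0.131) and the omission of pool 1 or 2 (up to 0.0737). That of undecanal pools was lost in 6 of 18, median centring (limma adjusted p = 0.321), a fit of these groups alone (0.052) and the omission of any 1 of the 4 undecanal pools (up to 0.154). The Eif2ak4 call was lost in 6 of 18 alternatives, among them quantile normalization (limma adjusted p = 0.273) and the omission of vehicle pool 2, 3 or 4 (up to 0.083).

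Of 19 genes of receptor export and G protein partners, 3 were higher and 0 lower in vehicle pools, and 2 higher and 1 lower in undecanal pools. Only 14 of the 19 were above background in at least 1 group. The medians of the list were -0.0398 and -0.0589, beside -0.113 and -0.106 over all probe sets. The share of the whole array called higher was 8.82% (vehicle) and 8.83% (undecanal), and that called lower 5.12% and 4.36%, so 2 and 1 of 19 are near the background. Gnas, the stimulatory G protein subunit that resembles the olfactory one, differed by 3.80 and 3.99, and Reep5, a membrane-shaping protein of the endoplasmic reticulum, by 2.82 and 2.62. Both moved the same way as the 15 neutrophil and monocyte genes, all of them higher with medians of 8.33 and 8.22, and as the microvillar cell genes (8 of 8 and 7 of 8 higher). Basal progenitor and cell cycle genes were also higher, in 7 of 9 and 8 of 9 cases. Sustentacular cell genes were higher in 4 of 7 cases with either agent, and erythroid genes in 2 of 2. Lymphocyte genes were higher in 3 of 5 and 4 of 5 cases. Few or none of the horizontal basal cell, ensheathing glia, and vascular and stromal genes were higher. Immature neuron genes were higher in 7 of 12 cases in vehicle pools and in 6 of 12 in undecanal pools, where 1 was lower. The part of any of these cells in the calls of these 5 lists was not tested. Reep4 was higher in vehicle pools (1.02), a call lost in 6 of 18 alternatives: median centring, quantile normalization, a fixed pool block (limma adjusted p = 0.0591), and the omission of vehicle pool 1, 2 or 3 (up to 0.211). Reep6, of the same family, was lower in undecanal pools (-0.67, from 11.63 to 10.96), a call lost with mature neuron list centring (limma adjusted p = 0.115), in a fit of these groups alone (0.0531) and on omission of undecanal pool 3 (0.0896). Of 17 LIM domain partners, 2 were higher in vehicle pools, Lmo1 (0.81, from below background) and Lmo4 (0.59), and 1 in undecanal pools, Lmo1 (0.92). Only 10 of the 17 were above background in at least 1 group, and the medians of the list were -0.0867 and -0.0286. The Lmo4 call was lost in 5 of 18 alternatives, among them the omission of vehicle pool 2, 3 or 4 (limma adjusted p up to 0.228), and the vehicle Lmo1 call on omission of pool 3 (limma adjusted p = 0.0674).

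With array median centring the lower calls of vehicle pools rose from 0 in each list to 13 of 23, 8 of 26, 16 of 31, 8 of 19 and 11 of 17 in the order given, beside 50.6% of all probe sets.

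**Figure D5:**
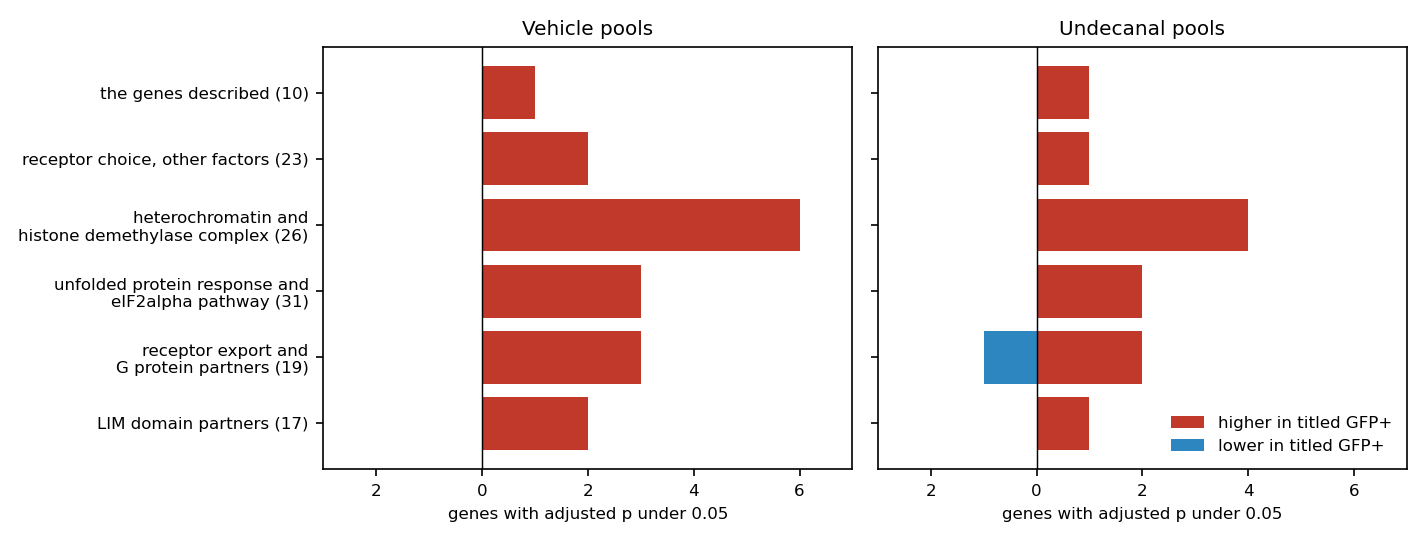
Number of genes with adjusted p under 0.05 between sort fractions, higher in arrays titled GFP+ to the right and lower to the left, for the 10 genes described and 5 pathway lists, with the number measured in brackets. The heterochromatin list has the most calls, 6 and 4, and Reep6 is the 1 lower call.

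With undecanal 0 genes of these 5 lists passed in either fraction or in the interaction (limma). The smallest unadjusted p in each fraction belonged to Sec24a, a subunit of the coat that carries cargo out of the endoplasmic reticulum, in arrays titled GFP+ (-0.70, from 7.89 to 7.20, limma adjusted p = 0.999) and to Rcor2 in arrays titled GFP- (-0.47, limma adjusted p = 1).

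For each of the other 9 genes, the single gene that followed it most closely over the 16 arrays had a Pearson r between 0.776 (Lhx2 and Supt4a) and 0.916, as a description. Each such r is the highest among 12965 genes on 16 arrays that share the split into fractions. A high value is therefore no evidence of a link, and no test was made. For Ric8b the closest 3 were Olfr1180 (0.916), Gm1979 (0.904) and Phactr1 (0.901), which differed between the fractions of vehicle pools by -1.26, -0.48 and -0.71 on the log2 scale. For Rtp2 the closest 3 were Ttc30b (0.900), a gene of ciliary transport, Dnajb11 (0.889), a chaperone of the endoplasmic reticulum, and Mri1 (0.880). For Atf5 the closest were Olfr1225 (0.883) and Vmn2r36 (0.881), and for Ldb1 it was Arid4a (0.908).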

How the data were processed

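Values were deposited as log2 probe set summaries, 1 column per array, which the authors made in Affymetrix Expression Console, a tool that the submitters' processing notes list; how probes were summarised, and on which build, is not given in the sources used here. Their log2 scale was read from the values, which ran from 1.67 to 19.7 outside control rows. Of 28846 rows, 6640 control rows were left out and 22206 probe sets tested, of which 19572 had 1 gene and 2634 none in the platform annotation. Background was log2 4.8, the 95th percentile of group means over 358 vomeronasal and bitter receptor probe sets.

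The 16 arrays entered 1 limma 3.58.1 model of 4 group means (lmFit and eBayes, R 4.3.3, no block). P-values of its 5 contrasts were each adjusted over the 22206 probe sets (Benjamini-Hochberg, threshold 0.05). The fit was tested on simulated data. Per the labels 24 mice were pooled in groups of 3, so same-numbered arrays of 1 agent were taken as fractions of 1 pool; their deviations from group means had correlations between 0.0502 and 0.271, above 0.1 for 6 of the 8 pools. 0 pairs of arrays were identical. Alternatives were 3 scalings, an intensity trend in the prior variance, array weights, a filter on dim probe sets, the groups in the fit, replicate blocks and each pool left out. Averaging over probe sets was not run, as each gene had 1. The 10 genes were always named; from each list up to 3 passing genes per direction between fractions, else the 2 smallest p, with undecanal the smallest p per list, of which the text names some, and 3 closest genes per member. Members and lists were chosen with earlier results of these data known. Motifs were searched in RefSeq promoters after seeing the values.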

Additional observations from a re-analysis of the deposited data

Results flagged for a closer look

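Of 40 groups of 4 arrays (10 genes in 4 groups), 4 had an array far from the other three, where chance gives about 1 in 20. Rtp1 was low at 16.97 in vehicle pool 1 titled GFP+, with the next array at 17.23. Rtp2 was high at 15.62 in vehicle pool 1 titled GFP-, with the next at 15.21. Kdm1a was low at 9.89 in undecanal pool 4 titled GFP+, with the next at 10.14. Ldb1 was low at 15.28 in undecanal pool 1 titled GFP+, with the next at 15.44. For the interaction 0 of the 10 genes passed (limma), and 0 had an unadjusted p under 0.05.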

How the results depend on the processing

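The Lbr difference between fractions passed and kept its direction under all 18 alternatives in vehicle and in undecanal pools (limma adjusted p up to 0.00114 and 0.00276). The count of the 10 genes that passed between fractions was 1 in the deposited scaling and 7 in vehicle and 8 in undecanal pools with array median centring, when 12801 and 12713 probe sets passed in place of 3097 and 2929. It was 3 in undecanal pools with an intensity trend in the prior variance. The pool as a replicate block left the count at 1 in each agent, with 3747 and 3542 probe sets passing, and changed no call of the 10 genes, as did the replicate number as a block and a fixed pool block chosen after seeing the data (3503 and 3259). The 1 probe set that passed with undecanal in arrays titled GFP+ did not when only the groups compared were fitted (0).

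Differences that had not passed turned sign as follows. With median centring the vehicle differences between fractions were -0.20 for Ldb1, -0.27 for Kdm1a and -0.33 for Eif2ak3, and in undecanal pools -0.35 for Lhx2, -0.35 for Ldb1, -0.22 for Kdm1a, -0.14 for Eif2ak3 and -0.35 for Rtp1. With mature neuron list centring the vehicle values were 0.21 for Lhx2, 0.12 for Emx2, 0.040 for Atf5, 0.096 for Rtp1, 0.033 for Rtp2 and 0.022 for Ric8b. Quantile normalization gave 0.0087 for Lhx2 in vehicle pools and -0.0052 for the undecanal effect on Ldb1 in arrays titled GFP+. Array weights gave -0.0035 for Rtp1 between fractions of undecanal pools. The undecanal effect on Atf5 in arrays titled GFP- was 0.0020 with median and 0.0096 with mature neuron list centring. The cause of these turns was not tested, except that a centring shifts all probe sets together.

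With 1 pool left out in turn, differences between fractions ran from -0.063 to 0.12 for Eif2ak3 in vehicle pools, and in undecanal pools from -0.028 to 0.042 for Lhx2, -0.040 to 0.065 for Ldb1 and -0.026 to 0.046 for Rtp1. The undecanal effect in arrays titled GFP+ ran from -0.051 to 0.025 for Lhx2, -0.044 to 0.11 for Ldb1, -0.092 to 0.0040 for Lbr, -0.13 to 0.16 for Eif2ak3, -0.088 to 0.042 for Rtp1 and -0.088 to 0.024 for Ric8b. In arrays titled GFP- it ran from -0.26 to 0.0033 for Emx2, -0.031 to 0.14 for Kdm1a, -0.031 to 0.15 for Lbr, -0.069 to 0.065 for Atf5, -0.14 to 0.029 for Rtp2 and -0.071 to 0.028 for Ric8b. The Lbr interaction ran from -0.24 to 0.030.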
